A study of Homo sapiens with 6 samples.

Results

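The 10 genes described here belong to bone morphogenetic protein (BMP) signalling: the ID genes ID1, ID2, ID3 and ID4, the ligands BMP4 and BMP7, the receptor BMPR1A, the inhibitory SMADs SMAD6 and SMAD7, and the antagonist NOG. They were chosen by name, as 10 of the 20033 protein-coding genes annotated in GENCODE, and all 10 were found in the annotation. ATAC-seq, which reads out where the Tn5 transposase can reach DNA, was performed on neural progenitor cells (NPCs) derived from the human embryonic stem cell (hESC) line H1. The 3 groups were wild type (WT), a knockout of both H3K27me3 demethylases UTX and JMJD3 (dKO), and dKO cells given BAF53B, a subunit of the neuronal BAF chromatin remodelling complex (dKO + BAF53B). Each group had 2 replicates, which the authors pooled into 1 list of peaks, so no value below has a replicate error and no test between conditions was possible. The knockouts were made in hESCs with Cas9 and a donor cassette, BAF53B came from a lentivirus, and neural induction in the study used the inhibitors SB431542 and dorsomorphin, the latter a blocker of BMP type I receptors, whatever the genotype. After induction the NPCs were passaged in a medium with bFGF and EGF, for which the study lists neither inhibitor. Whether the dKO line was 1 clone was not given in the sources used here. The study places its WT and dKO NPC ATAC-seq at passage 2, whereas the titles of the dKO + BAF53B samples name NPCs without a passage. Its legend on BAF53B ATAC-seq names differentiated cells. In comparisons with that group, a difference in passage or stage cannot be told apart from BAF53B.

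BMP ligands bind pairs of type I and type II serine/threonine kinase receptors, and the activated receptors phosphorylate SMAD1, SMAD5 and SMAD9, which enter the nucleus with SMAD4. The ID genes are the textbook targets of that complex. Their proteins are helix-loop-helix factors without a DNA-binding region, which bind E proteins and keep neurogenic bHLH factors off DNA. SMAD6 and SMAD7 are targets too, and their proteins damp the pathway, whereas noggin, encoded by NOG, holds BMP ligands away from the receptors. Inhibition of BMP signalling is how neural identity is induced in cultured pluripotent cells.

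The regulatory letters under the peaks are shown first, because the sites recognised by BMP SMADs are known from ID genes. The BMP-responsive element (BRE), which is GGCGCC and GTCT with any 5 bases between them, was searched on both strands. Its GGCGCC core was also counted by itself, so every BRE holds a core. In the 10 loci, each taken as the gene body with 20 kb on either side, the hg38 genome held 6 BREs, all of them at ID genes: 3 at ID3 and 1 each at ID1, ID2 and ID4. In the dKO list 4 of those 6 lay inside a peak, whereas 74 of the 862 BREs in the whole genome (8.58%) did. The dKO + BAF53B list held 1 of the 6 and 5.45% of all, and the WT list held none of the 6 and 1.74% of all. The genome shares take in copies far from genes, and no share for copies near gene starts was computed. Only this exact string was counted, so SMAD sites with other letters or another spacing were left out. The peak upstream of the ID1 start, in all 3 lists, held a GGCGCC core that is not among the 6. The 4 elements inside peaks are aligned here, read in the direction of transcription, with the letters of the element in capitals.
ID1, 3358 bases after the gene start: gtacggaGGCGCCtggctGTCTggggccc
ID2, 104 bases after the gene start: cgcgcctGGCGCCagagaGTCTgctccgg
ID3, 4583 bases after the gene start: gttcgctGGCGCCcggatGTCTgagctct
ID3, at position −2955: ccaccctGGCGCCaggctGTCTggggctg
These stretches lie at chr20:31608627-31608655 (plus strand), chr2:8678935-8678963 (plus strand), chr1:23554904-23554932 (minus strand) and chr1:23562442-23562470 (minus strand). All 4 elements ran in the same orientation as their gene. The ID1, ID2 and downstream ID3 elements were in peaks of the dKO list alone, and the upstream ID3 element was in peaks of both dKO lists. They lay 12, 51, 218 and 53 bp from the nearest summit.

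Counted by peak, a BRE stood within 150 bp of the summit in 3 of the 30 dKO peaks at these loci (10.0%) and in 38 of all 25439 dKO peaks (0.149%). In dKO + BAF53B it stood in 1 of 16 locus peaks (6.25%), against 0.124% of all peaks, and in WT in 0 of 4, against 0.102%. Among 35116 promoter windows of that length 0.103% held one. Without ID1 the dKO count was 2. The GGCGCC core was in 12 of the 30 dKO peaks (40.0%, against 20.5% of all dKO peaks), in 3 of 16 in dKO + BAF53B (18.8%, against 19.3%) and in 2 of 4 in WT (against 21.9%). Since the element was described from ID genes, its presence in these loci is background, and the measurement here is which copies lay in a peak.

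A palindromic SMAD element, GTCTAGAC, which reads the same on both strands, lay in peaks at the inhibitory SMADs. The capitals mark it.
SMAD6, at position −9: ccgccaaagtGTCTAGACtggcatatga
SMAD7, at position −1256: gcgacagggtGTCTAGACggccacgtga
They are at chr15:66702214-66702241 (shown on the plus strand) and chr18:48952208-48952235 (shown on the minus strand). The SMAD6 copy was in a dKO peak alone and the SMAD7 copy in peaks of both dKO lists. The 10 loci held 6 copies, 2 of them in dKO peaks, while 0.652% of the 15800 copies in the genome were in dKO peaks. That share too takes in copies far from genes. Within 150 bp of a summit, the SMAD6 copy gave 1 of 30 dKO peaks (3.33%, against 0.224% of all) and the SMAD7 copy 1 of 16 dKO + BAF53B peaks (6.25%, against 0.177%).

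A pair of ID windows, each 200 bases wide and centred on a dKO summit, show the setting of the core and of the BRE. They were chosen as the tallest peak at ID1 and the tallest at ID3.
ID1 upstream peak, chr20:31604217-31604416, plus strand: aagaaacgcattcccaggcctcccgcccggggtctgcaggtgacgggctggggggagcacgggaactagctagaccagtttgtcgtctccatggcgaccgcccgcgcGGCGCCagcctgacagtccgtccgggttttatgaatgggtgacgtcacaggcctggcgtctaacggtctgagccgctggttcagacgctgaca
ID3 upstream peak, chr1:23562409-23562608, minus strand: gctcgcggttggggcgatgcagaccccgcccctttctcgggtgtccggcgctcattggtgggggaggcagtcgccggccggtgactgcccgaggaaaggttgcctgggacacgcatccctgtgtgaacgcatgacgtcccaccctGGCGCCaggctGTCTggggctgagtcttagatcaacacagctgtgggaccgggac
The ID1 window, from −1066 to −867, held the GGCGCC core in capitals and had a GC content of 64.5%. The ID3 window, from −3107 to −2908, held the whole BRE in capitals and had a GC content of 67.0%. An AP-1 site, TGANTCA, was near the summit in 0 of the 30 dKO locus peaks, against 6.95% of all dKO peaks, and in 1 of the 16 dKO + BAF53B locus peaks, against 12.8%.

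The lists held 7880 peaks in WT, 25439 in dKO and 16948 in dKO + BAF53B. Depth differed little, since the genome-wide background that the peak caller used was 6.33, 6.81 and 6.78 tags, so the lists of dKO and dKO + BAF53B were 1.08 and 1.07 times as deep as WT. Height is given as the summit pileup, the number of extended Tn5 tags over the highest base, recovered as a whole number for 100% of peaks. Its median was 36 in WT, 41 in dKO and 38 in dKO + BAF53B, and the smallest was 25, 25 and 26. Fold is the authors' value, pileup over the local background. Intervals are exact 95% Poisson intervals and cover counting error alone. In bulk cells, a larger share of cells with an open site and more opening per cell cannot be told apart. Of all 6255 peaks shared between WT and dKO, 91.5% were higher in dKO. A list-wide difference in signal over noise between the libraries cannot be told apart from opening either. Promoter peaks were listed for 2, 6 and 5 of 8 neural progenitor markers (WT, dKO and dKO + BAF53B in that order), and PAX6 and NES, a defining factor and filament of these cells, had none in any list. The study reported the other direction, with chromatin more closed in dKO NPCs at regulators that included SOX1, SOX2 and NES. In these lists SOX1 (46 tags) and SOX2 (70 tags) had a promoter peak in dKO and none in WT. None of 4 pluripotency markers, 3 neural crest markers or 3 endodermal markers had one. Of 4 mesenchymal markers 0, 2 and 1 had one, COL1A1 at a pileup of 60 in dKO and 36 in dKO + BAF53B and TWIST1 at 29 in dKO, and of 4 neuronal markers SYN1 alone had one, at 26 in dKO. Their part in the values below was not tested. A peak list does not check the deletion of UTX or JMJD3.

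The WT list held a peak at the promoters of 3 of the 10 genes, the dKO list at 8 and the dKO + BAF53B list at 6, a promoter being 3 kb on either side of the gene start. Among all protein-coding genes the shares were 28.2%, 56.4% and 45.0%. With 10 genes the Wilson 95% intervals of the counts ran from 10.8 to 60.3% in WT, from 49.0 to 94.3% in dKO and from 31.3 to 83.2% in dKO + BAF53B, and each held the share of all genes. These intervals take the genes as independent draws, whereas they are related and were chosen by name, so they are no test of the set. With a window of 1 kb the counts were 3, 7 and 4, BMP4 being lost from dKO and ID2 and SMAD7 from dKO + BAF53B. That window was centred on the annotated gene start. From their canonical starts, the lost BMP4 peak lay at 188 bp and the lost ID2 peak at −115 bp. ID1, ID4 and BMPR1A had a promoter peak in all 3 lists (26.8% of all genes did). ID2, ID3 and SMAD7 had one in both dKO lists and not in WT (16.2%), BMP4 and SMAD6 in dKO alone (12.4%), and BMP7 and NOG in no list (41.3%). Thus 5 of the 10 gained a place in the dKO list over WT (28.6% of all genes), and none was in WT and missing from dKO (0.399%) or in dKO + BAF53B and missing from dKO (2.05%). BMP4 and SMAD6 were in dKO and not in dKO + BAF53B (13.5%).

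Height ordered the genes differently from presence. Among the 11301 genes with a promoter peak in dKO, the strongest peak of ID3 stood at percentile 85.6, of ID2 at 84.8, of ID4 at 82.4 and of SMAD6 at 80.8. SMAD7 (63.4), BMPR1A (51.1) and BMP4 (29.1) were nearer the middle or below it.

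**Figure D1:**
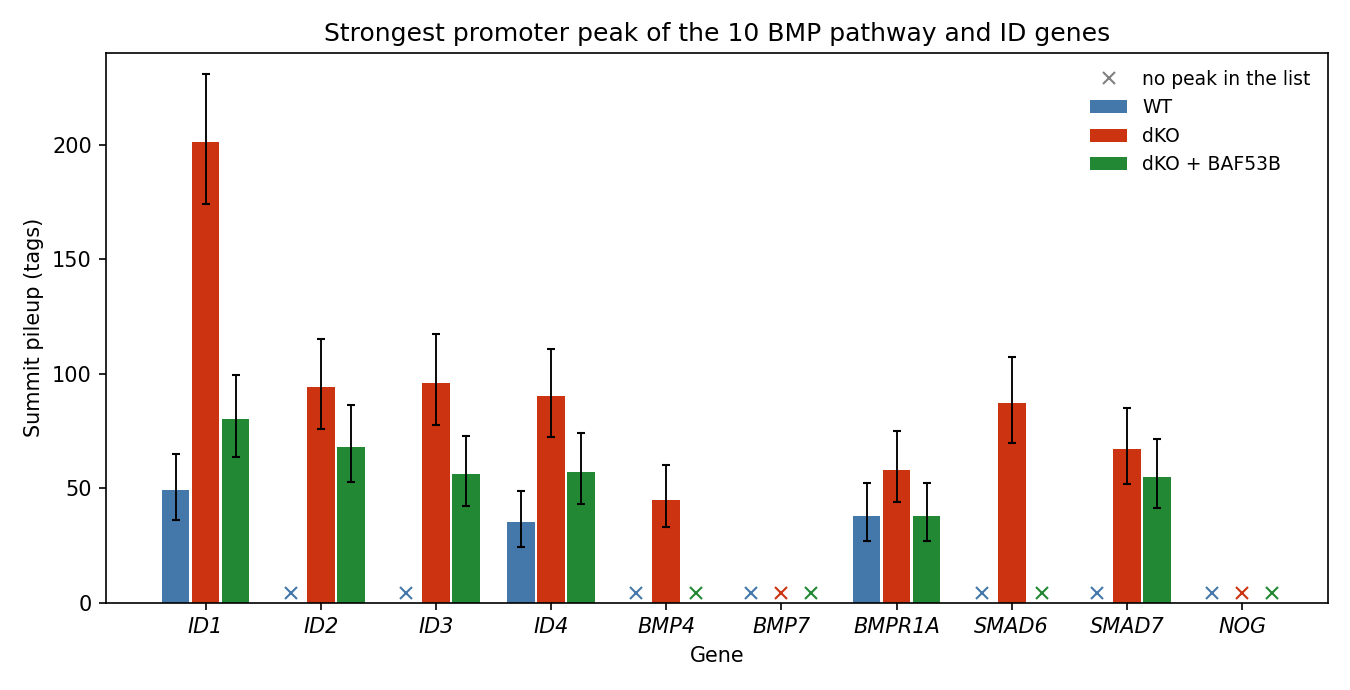
Bars give the summit pileup, in tags, of the strongest promoter peak of each of the 10 genes in the WT, dKO and dKO + BAF53B lists, with exact 95% Poisson intervals, and crosses mark a list without a promoter peak. ID1 stands highest at 201 in dKO, ID2, ID3, ID4 and SMAD6 lie between 87 and 96 there, and BMP7 and NOG have crosses in all 3 lists.

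List length bears on these counts, since the dKO list was 3.23 times as long as that of WT. When each list was cut to its 7880 most significant peaks, the WT list kept 3 of the 10 genes at their promoters, the dKO list 7 and the dKO + BAF53B list 5, while the shares of all genes were 28.2%, 33.3% and 31.1%. ID2, ID3, SMAD6 and SMAD7 were then in dKO and not in WT, as were 9.35% of all genes, and BMP4 was not in the shortened dKO list. With a −log10 q of at least 10 in every list, none of the 10 genes had a promoter peak in WT (14.3% of all genes), 7 had one in dKO (42.3%) and 5 in dKO + BAF53B (28.8%).

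ID1, at chr20:31605283-31606515 on the plus strand, had the tallest promoter peak of the 10 genes in every list. The peak upstream of its start had a pileup of 49 (36.3 to 64.8) in WT, 201 (174 to 231) in dKO and 75 (59.0 to 94.0) in dKO + BAF53B. The dKO interval overlapped neither of the others, and those of WT and dKO + BAF53B overlapped each other. Relative to depth, dKO over WT was 3.81-fold, a log2 ratio of 1.93 (1.47 to 2.41), and dKO + BAF53B over dKO was −1.41 (−1.82 to −1.03). The authors' fold at that peak was 2.63 in WT, 4.97 in dKO and 3.85 in dKO + BAF53B, a narrower range, because the local background was higher too. That background was 18.0, 39.6 and 18.7 tags, which comes to 1199, 2642 and 1248 tags in the 10 kb around the summit. It is counted from the same pooled tags, so it includes those of the peak itself and of peaks nearby. Fold and pileup are therefore not independent. By its strongest promoter peak, ID1 stood at percentile 74.1 of the genes with one in WT, 99.6 in dKO and 93.2 in dKO + BAF53B.

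At the ID1 start itself a second peak had a pileup of 145 in dKO and 80 in dKO + BAF53B and was not in the WT list. It also holds the start of the long noncoding gene ENSG00000289875, and ATAC-seq does not tell the starts apart. Further sites lay 3346 bp after the start (132 in dKO alone, the peak with the BRE shown above) and about 7.7 kb after it, where all lists had a peak, at 63 in WT, 111 in dKO and 65 in dKO + BAF53B. Upstream, dKO alone had peaks at −9052 (70), −10208 (61) and −17720 (56). ID1 therefore had 2 peaks in WT, 7 in dKO and 3 in dKO + BAF53B, and 1.36% of protein-coding genes had at least as many locus peaks in dKO.

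The neighbourhood of ID1 stood out in all 3 lists, WT included. Peaks within 500 kb of its start had a median local background of 16.1 tags in WT, 25.7 in dKO and 17.7 in dKO + BAF53B (10, 49 and 21 peaks), whereas peaks of chromosome 20 more than 2 Mb away had 8.70, 10.8 and 9.62. The ratios were 1.85, 2.39 and 1.84. For the other 9 genes the median background within 500 kb was 0.733 to 1.13 times that of its list in WT, 0.911 to 1.27 times in dKO and 0.80 to 1.10 times in dKO + BAF53B, against 1.86, 2.58 and 1.90 times for ID1. In WT the lowest of these rested on 1 peak (ID2) and the highest on 2 (SMAD7). BMP7 had 1 peak there and BMP4 had 2. By median local background the 1-Mb bin of ID1 ranked second of 207 bins with at least 8 peaks in WT, first of 1302 in dKO and second of 810 in dKO + BAF53B. This stretch of the long arm of chromosome 20 is one where hESC lines are known to gain copies in culture. The study reported a normal karyotype for its mutant hESC lines. Copy number was not measured in these NPC samples, and its part in the ID1 values was not tested. Peaks outside the ID1 locus and within 500 kb of it, chosen for a look after the data had been seen, had a median log2 ratio of dKO over WT of 1.10 in pileup (6 shared peaks, 0.92 to 1.46), against 0.71 for all 6255 shared peaks, and of 0.67 in local background, against 0.26. The ID1 upstream peak, at 1.93, lay above all 6 of them, and the downstream peak, at 0.71, below all 6. With its pileup taken over the local background within 500 kb, the dKO over WT log2 ratio of the ID1 promoter was 1.36, and that of dKO + BAF53B over dKO was −0.79. For dKO + BAF53B over dKO, 14 shared peaks outside the locus had a median of −0.72 in pileup (−1.26 to 0.11), against −0.36 for all. In local background it was −0.62, against −0.15. The ID1 upstream peak, at −1.41, lay below all 14. Its peaks at the start (−0.85) and downstream (−0.76) lay within their range.

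**Figure D2:**
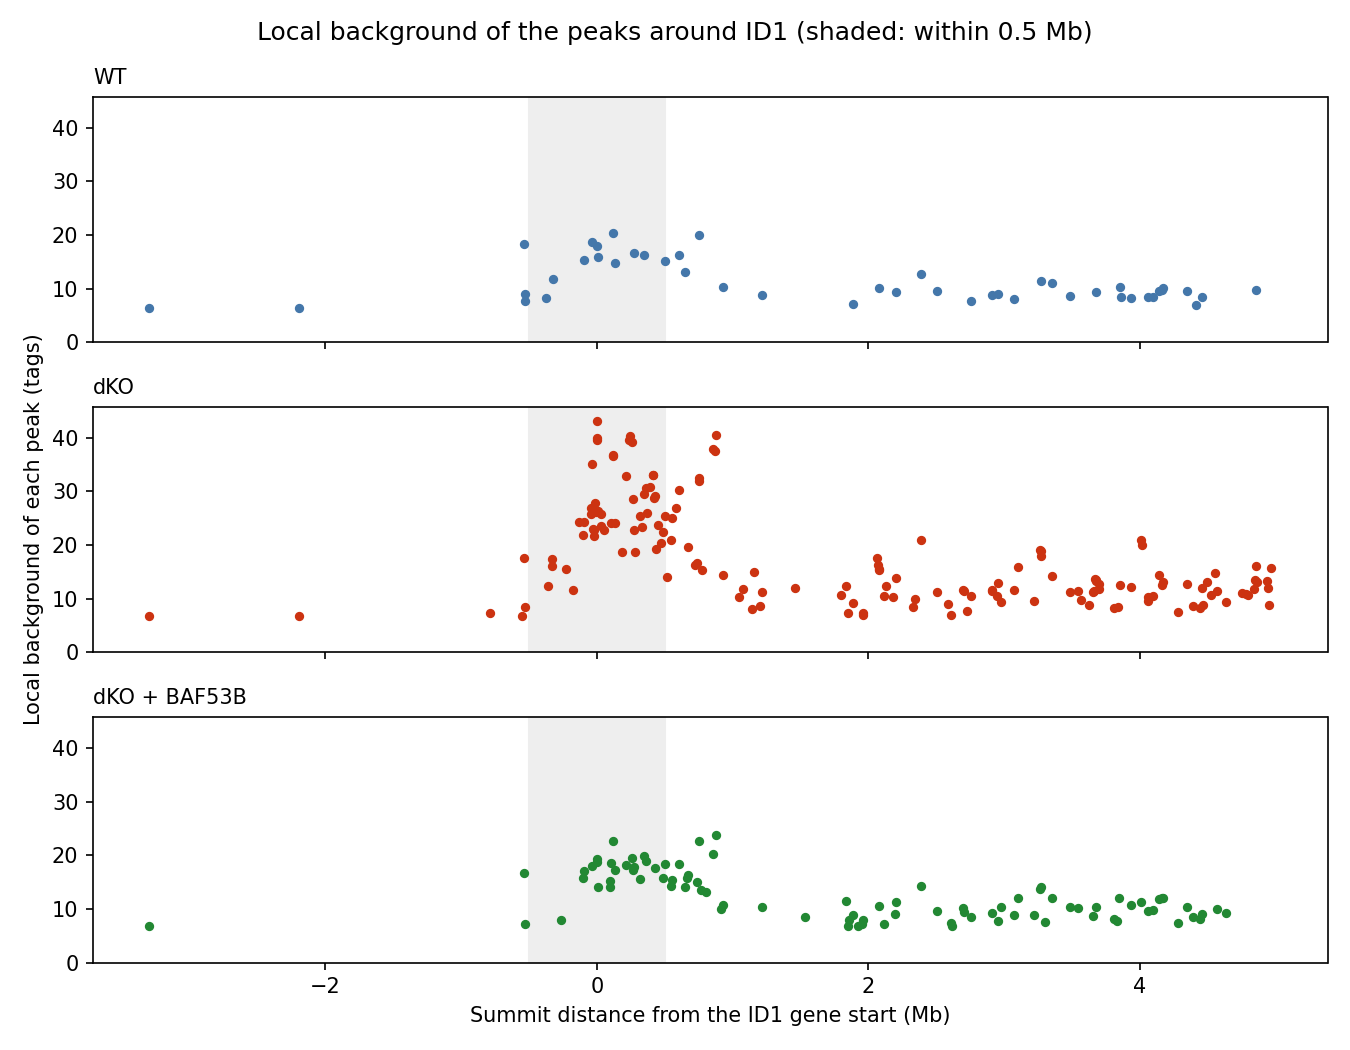
Each point is a peak of chromosome 20, placed by the distance of its summit from the ID1 gene start in Mb (to 5 Mb either way) and by its local background in tags, with 1 panel for each list. Within 500 kb of ID1 the medians are 16.1 in WT, 25.7 in dKO and 17.7 in dKO + BAF53B, above the 8.70, 10.8 and 9.62 of peaks more than 2 Mb away.

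ID2, at chr2:8678845-8684461 on the plus strand, had no peak in WT. Its annotated gene start lies upstream of the start of its canonical transcript, and dKO had a peak at each: 73 tags by the gene start, which holds the BRE, and 94 at −97 from the canonical start. In dKO + BAF53B only the latter was listed, with a pileup of 68. It also holds the start of ID2-AS1 on the other strand. The ratio of dKO + BAF53B to dKO there was −0.46 on the log2 scale (−0.93 to 0.0060), an interval that held 0, and the authors' folds were nearly equal, 4.78 in dKO and 4.80 in dKO + BAF53B. Another site, 3813 bp after the canonical start, had 41 tags in dKO and 38 in dKO + BAF53B.

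ID3, at chr1:23557926-23559501 on the minus strand, had no peak in WT, 6 in dKO and 3 in dKO + BAF53B. In dKO 3.17% of genes had at least as many locus peaks. The tallest was at −3008, with a pileup of 96 (77.8 to 117) in dKO and 56 (42.3 to 72.7) in dKO + BAF53B, intervals that did not overlap. The peak at the start had 71 tags in dKO and 54 in dKO + BAF53B, with overlapping intervals, and the authors' fold was lower in dKO (2.95) than in dKO + BAF53B (3.46). Peaks at −15065 (39), 4365 (77) and 19546 (55) bp from the start were in dKO alone, the second of them with a BRE. A site about 14.6 kb beyond the start had a pileup of 34 in both dKO lists.

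ID4, at chr6:19837370-19842197 on the plus strand, was the other ID gene with a promoter peak in every list. Its pileup was 35 (24.4 to 48.7) in WT, 90 (72.4 to 111) in dKO and 57 (43.2 to 73.9) in dKO + BAF53B. The WT and dKO intervals were apart, with a log2 ratio of 1.26 (0.68 to 1.86), or 2.39-fold, whereas dKO + BAF53B over WT was 0.61 (−0.03 to 1.26). The summit lies within the noncoding gene LNC-LBCS. The authors' fold had the same order, 3.65 in WT, 5.98 in dKO and 4.19 in dKO + BAF53B. A small peak 14.6 kb downstream was in both dKO lists, at 29 and 31 tags.

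**Figure D3:**
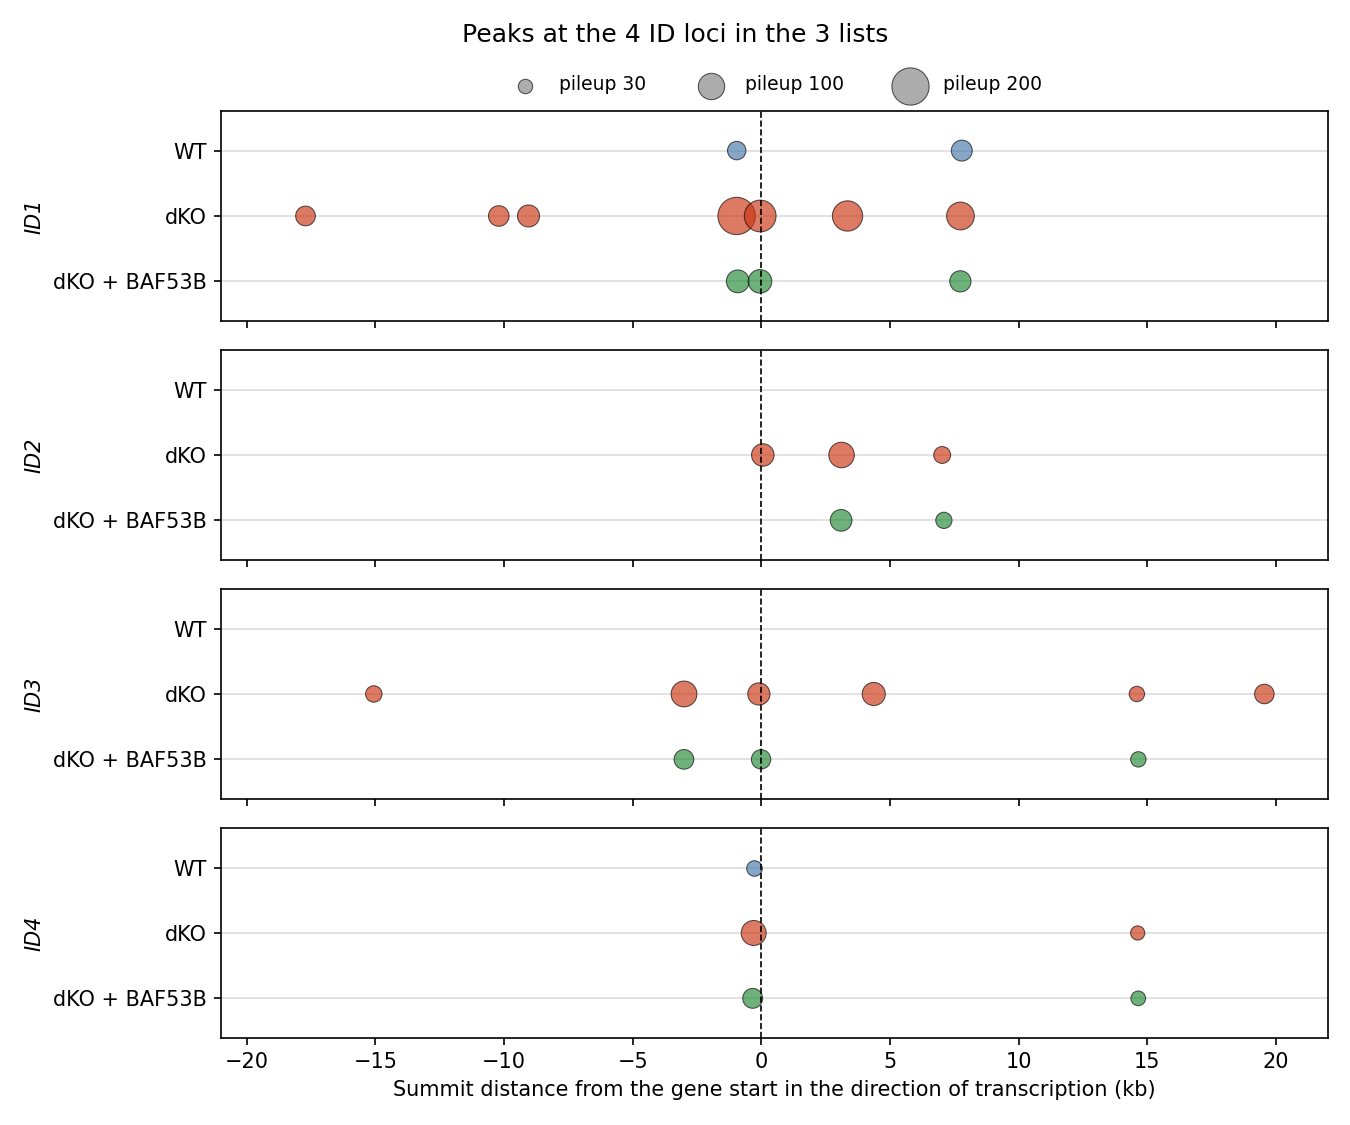
Each circle is a peak at an ID locus, placed by the distance of its summit from the gene start in kb along the direction of transcription, with its area proportional to the summit pileup and 1 row for each list. The dKO rows hold 18 peaks over the 4 loci, the dKO + BAF53B rows 10 and the WT rows 3, and the WT rows of ID2 and ID3 are empty.

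The ligands had few peaks. BMP4, at chr14:53949736-53958761 on the minus strand, had 2 in dKO, one of 45 tags in an exon 188 bp after its canonical start and one of 47 tags in an intron, and none in the other lists. BMP7, at chr20:57168753-57266641 on the minus strand, had a single peak of 36 tags, in an intron in dKO and far from its start. NOG, at chr17:56593699-56595611 on the plus strand, had no peak in its locus in any list.

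BMPR1A, a type I BMP receptor at chr10:86756596-86932825 on the plus strand, differed least among the genes listed in every group. Its promoter pileup was 38 (26.9 to 52.2) in WT, 58 (44.0 to 75.0) in dKO and 38 (26.9 to 52.2) in dKO + BAF53B. All 3 intervals overlapped, and the log2 ratio of dKO over WT was 0.50 (−0.11 to 1.13). The dKO and dKO + BAF53B peaks also hold the start of ENSG00000272631. Away from the promoter, dKO had an intronic peak of 30 tags and one of 49 tags beyond the gene, within MMRN2, and dKO + BAF53B had another intronic peak of 27 tags. Of the 3 genes listed at their promoters in WT as well as dKO, ID1 and ID4 were over 1.5-fold higher in dKO and BMPR1A was not, and 66.6% of all such genes passed that fold, so these counts were near the background.

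SMAD6, at chr15:66702236-66782849 on the plus strand, had 5 peaks in dKO. They were at its start (87 tags, with the palindromic element), at −1211 (67), 5333 bp into the gene (65) and in an intron farther on (43 and 43). Neither WT nor dKO + BAF53B had a promoter peak, and dKO + BAF53B had 2 other sites, of 40 and 33 tags. SMAD7, at chr18:48919853-48950965 on the minus strand, had 1 broad upstream peak in dKO, with a pileup of 67, where dKO + BAF53B had 2 summits of 55 and 37. Its log2 ratio of dKO + BAF53B over dKO was −0.28 (−0.82 to 0.26) in pileup and 0.15 in fold.

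For the promoters missing from a list, the pileup that list needed for a call can be set beside the dKO pileup scaled to its depth, at the dKO local background. In WT that was 47 needed against 87.4 for ID2, 45 against 89.2 for ID3, 50 against 80.9 for SMAD6 and 44 against 62.3 for SMAD7. Peaks as tall as those in dKO would have been listed, while lower ones could have been missed. The scaling was for depth alone. Over the 5576 genes with a promoter peak in both lists, the median log2 ratio of dKO over WT was 0.77. A WT peak lower by that much was not set against these limits, so absence from WT does not show a change particular to these genes. For BMP4 the values were close, 39 needed against 41.8 in WT and 40 against 44.8 in dKO + BAF53B, so its absence was near the limit of detection. For SMAD6 in dKO + BAF53B they were 51 against 86.5.

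Over the 10 loci there were 4 peaks in WT, 30 in dKO and 16 in dKO + BAF53B. Relative to WT that was 7.5 and 4.0 times, where the lists as wholes had 3.23 and 2.15 times as many peaks. Both ratios rest on only 4 WT peaks, and no interval was computed for them. Without ID1 the counts were 2, 23 and 13. With lists of equal length the loci held 4, 14 and 8 peaks in WT, dKO and dKO + BAF53B. Merged into 33 regions, 4 were in all lists, 8 in both dKO lists, 18 in dKO alone, 3 in dKO + BAF53B alone and none in WT alone. All 4 WT peaks overlapped a dKO peak, against 79.4% of all WT peaks. A WT peak overlapped 4 of the 30 dKO peaks, or 13.3% (Wilson interval 5.31 to 29.7%, which takes peaks of the same locus as independent), against 24.4% of all dKO peaks. A dKO + BAF53B peak overlapped 12 of them (40.0%, against 44.3%), and 14 of the 16 dKO + BAF53B peaks overlapped a dKO peak (87.5%, against 66.7%).

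At the 12 dKO peaks with a dKO + BAF53B partner, the median log2 ratio of dKO + BAF53B over dKO was −0.53 in pileup, against −0.36 for all 11275 shared peaks, and without ID1 it was −0.39. On the authors' fold the direction turned, to 0.12, against −0.20 for all. In pileup 2 of the 12 ratios were above 0 (ID3 and ID4, each about 14.6 kb downstream), and on the fold 8 were. The upstream peaks of ID1 and ID3 and the promoter peaks of ID4 and BMPR1A were lower in dKO + BAF53B on both scales. The local background, which includes tags of the peaks themselves, was lower in dKO + BAF53B at all 12. The 4 regions in WT and dKO had a median of 0.98 in pileup and 0.49 in fold, against 0.71 and 0.44 for all shared peaks. Of the 6 genes with a promoter peak in both dKO lists, ID1, ID3, ID4 and BMPR1A were over 1.5-fold lower in dKO + BAF53B by pileup, as were 35.6% of all such genes, and the interval of BMPR1A (−1.23 to 0.012) held 0. The ID3 peak has its summit just outside the 3 kb window, and with a window of 1 kb its ratio was −0.39, not past 1.5-fold. Over the background within 500 kb ID4 (−0.40) and BMPR1A (−0.34) were not past it, and on the authors' fold none of the 4 was (ID1 −0.31, ID3 −0.32, ID4 −0.52 and BMPR1A −0.58). Of the 3 genes listed in WT and dKO + BAF53B, ID1 (1.53-fold, between different summits) and ID4 (1.52-fold) were just over 1.5-fold higher in dKO + BAF53B, as were 16.0% of all such genes. Both calls were marginal. At the upstream ID1 region shared by the lists the ratio was 1.43-fold, a log2 value of 0.52 (−0.02 to 1.07). Over the background within 500 kb ID1 (log2 ratio 0.57) and ID4 (log2 ratio 0.45) were both under 1.5-fold, as was ID4 on the authors' fold (log2 ratio 0.20).

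**Figure D4:**
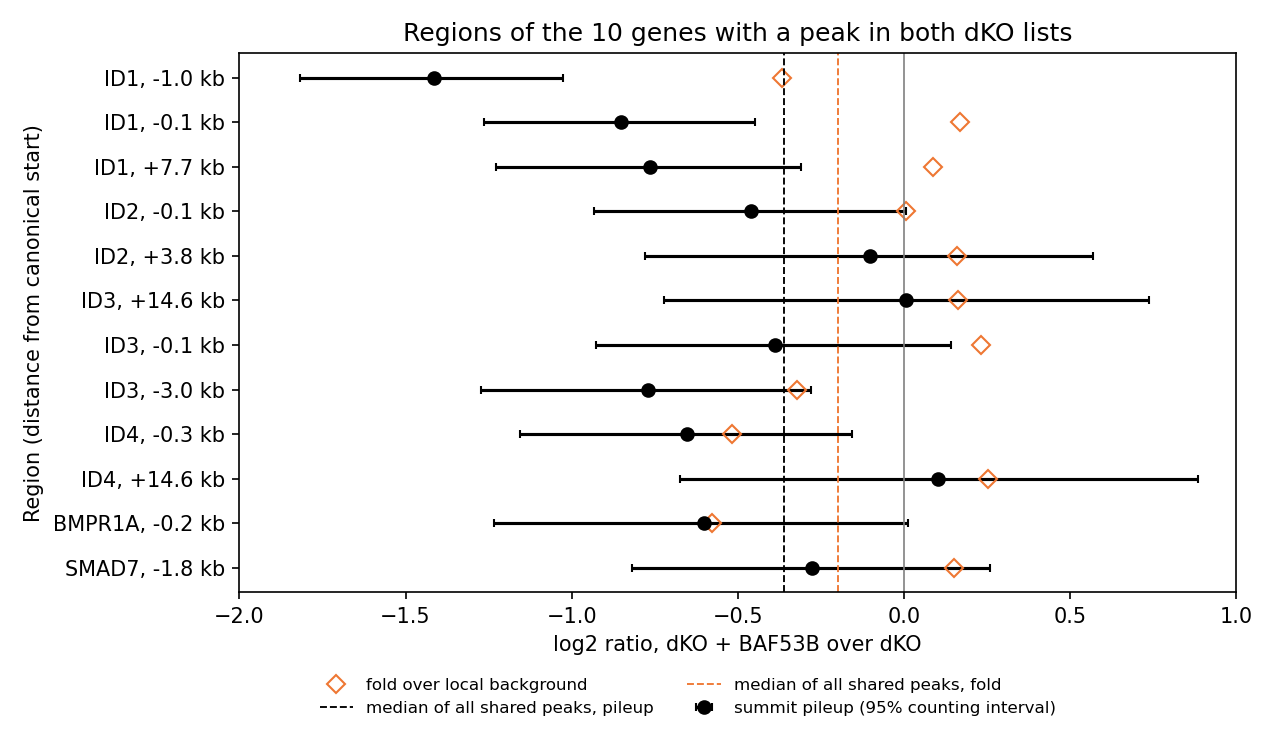
Filled points give the log2 ratio of dKO + BAF53B over dKO in summit pileup, with 95% counting intervals, at the 12 regions with a peak in both lists, and open diamonds the same ratio in the authors' fold over local background. The dashed lines mark the medians of all shared peaks, −0.36 in pileup and −0.20 in fold. The pileup points have a median of −0.53 and the diamonds of 0.12.

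The rest of the pathway was read from 55 other genes. Promoter peaks were found for 14 of them in WT (25.5%), for 30 in dKO (54.5%) and for 20 in dKO + BAF53B (36.4%), shares below or near the 28.2%, 56.4% and 45.0% of all genes, and 17 were in dKO and not in WT (30.9%, against 28.6%). By role, the genes listed in WT, dKO and dKO + BAF53B were 2, 5 and 2 of 12 ligands, 3, 3 and 3 of 6 receptors, 4, 7 and 4 of 8 SMADs and cofactors, and 1, 7 and 6 of 16 antagonists and decoys. Coreceptors were 1, 3 and 2 of 5, targets 1, 3 and 1 of 5, and the E proteins that ID proteins bind 2, 2 and 2 of 3.

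Among the pathway genes with a promoter peak in WT, the corepressor gene SKI, whose product holds SMAD complexes silent, had 31 tags in WT, 121 in dKO and 58 in dKO + BAF53B, a dKO over WT ratio of 1.86 (1.28 to 2.48) on the log2 scale. The E protein gene TCF3 had 53, 147 and 66 tags, a log2 ratio of 1.37 (0.90 to 1.85), and TCF12, another E protein gene, had 33, 68 and 50. The signal transducer SMAD5 had 32, 78 and 40 tags and its partner SMAD4 had 35, 60 and 41. The dKO value was the highest of the 3 in each of these genes, and 91.5% of all peaks shared between WT and dKO were higher in dKO. SKIL, a relative of SKI, had 33, 76 and 47. The receptors had 34, 63 and 51 (BMPR2), 40, 64 and 42 (ACVR1) and 34, 58 and 39 (ACVR2A), and the antagonist NBL1 had 42, 64 and 35. GDF5, a ligand, had 49, 94 and 50. In these genes too dKO was highest. Some of the peaks also hold the start of another gene, CEP250 for GDF5, UPP2 for ACVR1, MICOS10-NBL1 for NBL1 and ENSG00000285253 for TCF12.

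A few pathway genes had another order. The ligand BMP6 had 34 tags in WT, 33 in dKO and 52 in dKO + BAF53B. DLX5, a homeobox target, had 34 in WT and 36 in dKO. The coreceptor RGMB had 41 tags in WT and no promoter peak in either dKO list. Over the 13 genes listed in WT and also in dKO the median log2 ratio was 0.78, and 9 of the 13 were over 1.5-fold higher in dKO, against 66.6% of all such genes. Of those in dKO and not in WT, the 5 tallest were the coreceptors NEO1 (83) and HJV (68), the antagonists SOST (81) and TWSG1 (65) and the ubiquitin ligase SMURF1 (64). All of them but SMURF1 were also in dKO + BAF53B, at 52, 42, 55 and 46 tags.

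**Figure D5:**
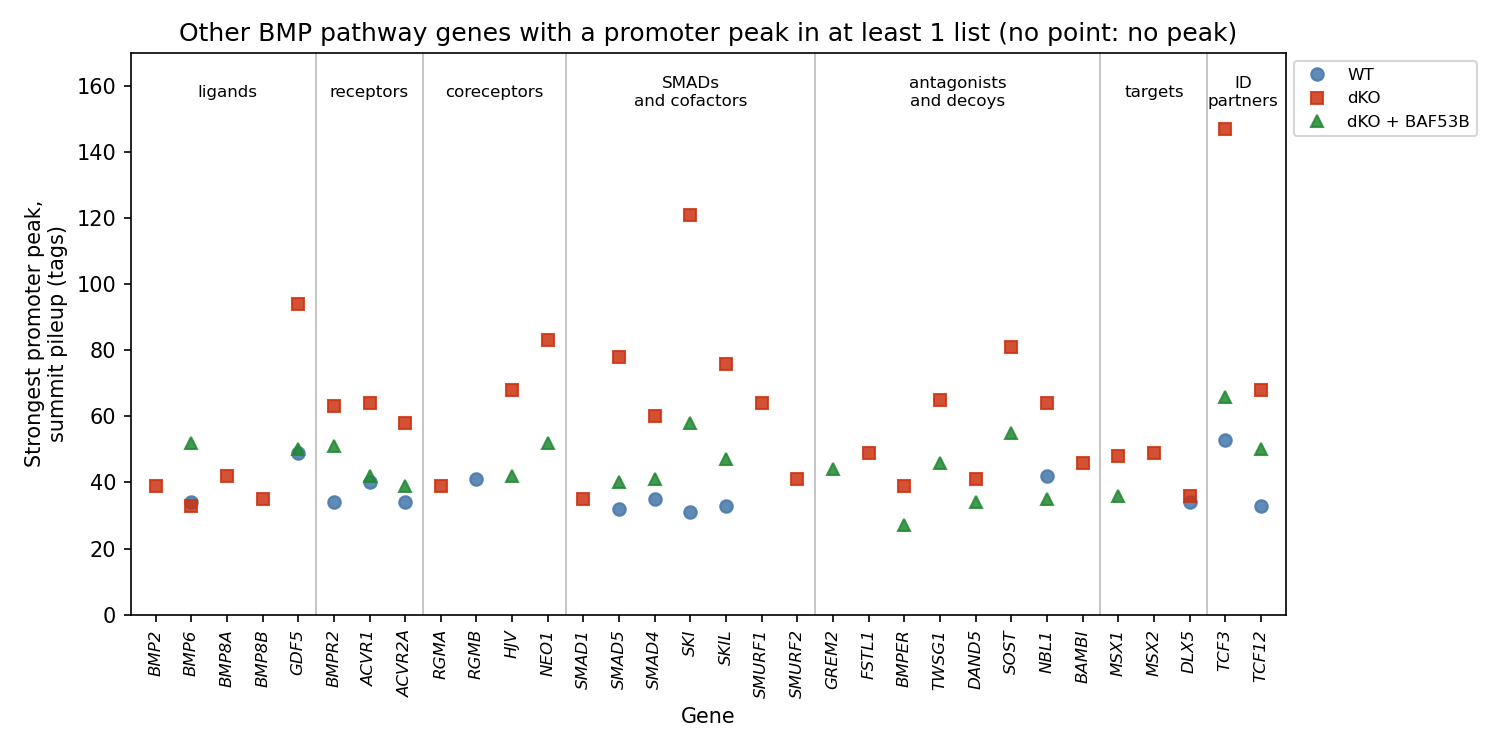
Points give the summit pileup, in tags, of the strongest promoter peak of the other BMP pathway genes with a peak in at least 1 list, grouped by role, with circles for WT, squares for dKO and triangles for dKO + BAF53B. SKI (121) and TCF3 (147) stand highest in dKO, and RGMB has a point in WT alone.

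Across the 5363 genes with a promoter peak in every list, the genes nearest to ID1 by Euclidean distance of log2 pileup over genome background were TRIM28 (54, 193 and 80 tags in WT, dKO and dKO + BAF53B, at a distance of 0.152) and MYADM (48, 176 and 85 tags, at 0.213). This likeness rests on 3 values a gene.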

How the data were processed

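ATAC-seq peaks of H1-derived NPCs were analysed from 3 lists (WT, dKO and dKO + BAF53B), each made by the authors from 2 pooled replicates. Per the labels' processing notes, the tools included cutadapt 1.13, Bowtie2 2.2.5, SAMtools 1.3.1, Picard 1.90, deepTools 2.4.2, HOMER and MACS2, on hg38, and the versions of HOMER and MACS2 and the calling options were not given in the sources used here. The deposited lists hold, for each peak, a position, a score, the fold (a ratio of summit pileup to local background, each plus 1), the −log10 p-value and the −log10 q-value, which was at least 5 in every list. Total read numbers were not given.

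From the fold and the −log10 p-value the whole summit pileup and the local background were solved under MACS2's Poisson model, to a tolerance of 0.001, for 100% of peaks, and on 5000 simulated peaks 100% were recovered. Ratios between lists are of pileup over genome background, with exact conditional binomial intervals, and shares have Wilson intervals. Depth is known only as that genome background. Genes came from GENCODE 44, overlap was at least 1 bp, and RefSeq promoters (GRCh38.p14) matched 8 of the 10 genes. Python 3.11.15, pandas 2.3.3, scipy 1.17.1 and pysam 0.24.0 were used. With 1 list a group, no test was run. The genes and lists were chosen with earlier results of these data known. Named genes were the 10, the other pathway genes with a WT promoter peak, the 5 tallest of those in dKO and not in WT, genes whose start lay in a locus peak, and the 2 nearest to ID1. Markers and other genes sharing a peak or holding a summit were named beside those, outside that rule and after their values were seen. Alternatives were a stricter q, equal list lengths, other windows, other scales and the set without ID1.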

Additional observations from a re-analysis of the deposited data

How the results depend on the processing

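No paired analysis was possible because the deposited peaks of a group come from its replicates pooled, and for that reason leaving out a replicate could not be run. A −log10 q of at least 10 gave 0 genes with a promoter peak in WT. It gave 1, 17 and 8 locus peaks in WT, dKO and dKO + BAF53B. The overlap counts then were 1 for WT with dKO, 1 for dKO with WT, 1 for WT with dKO + BAF53B, 1 for dKO + BAF53B with WT and 8 for dKO + BAF53B with dKO. The median log2 ratio of dKO + BAF53B over WT then turned to −0.053, from 1 remaining region, and the other pathway genes with a promoter peak numbered 3 in WT and 11 in dKO + BAF53B. Lists of equal length gave 14 locus peaks in dKO and 8 in dKO + BAF53B, 7 overlapping in each direction between them, and 16 other pathway genes in dKO. Without ID1, chosen after seeing the data, WT had 2 locus peaks, and each of the 4 overlap counts that involve WT was 2.

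On the authors' fold, the median log2 ratio over shared regions was 0.49 for dKO over WT and turned to 0.12 for dKO + BAF53B over dKO. The ratio of dKO + BAF53B over dKO also turned at ID2 (0.0078 on the fold) and at SMAD7 (0.15 on the fold and 0.19 on pileup over the background within 500 kb). Within 50 bp of the summit the BRE was in 1 dKO locus peak and 0 dKO + BAF53B locus peaks. Under the other alternatives, 73 values of these counts and medians kept their direction, with counts within 1.5 times the reported one. Among them, a 1 kb promoter window gave 4 genes in dKO + BAF53B, a 5 kb flank gave 21 dKO locus peaks, and the median of dKO + BAF53B over WT was 0.52 with reciprocal overlap and 0.53 on −log10 p. The cause of these changes was not tested. Low pileups limit what was detectable, since a list held no peak under 25 tags.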
